A study of Rattus norvegicus with 18 samples.

Results

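A set of 31 gene IDs was chosen by its level in 4 female libraries of perivascular adipose tissue around the small mesenteric arteries (MRPVAT) of rats fed a control diet (CD). The lower value of G75FC4 and G75FC5 lay at least 1.5 above the higher value of G73FC3 and G73FC4 on the log2(FPKM + 0.5) scale, with at least 5 FPKM in both G75FC4 and G75FC5. The table held 32883 gene IDs, 22851 of them above 0 in some library, and 6496 had at least 5 FPKM in both G75FC4 and G75FC5, so that the 31 members were 0.477% of these. The rule turned round, with G73FC3 and G73FC4 above the other pair, found 1041 of 8912 gene IDs (11.7%). Because the members were selected on these 4 libraries, their values there are a description and no comparison of them was tested. They did enter the spread between rats in an alternative fit of all 4 groups.

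RNA of MRPVAT was analysed here from 18 Dahl S rats, an inbred line whose blood pressure is sensitive to salt, fed from weaning on a high fat diet (HFD) or the CD for 24 weeks, the HFD rats being hypertensive at that time. These were 5 females on a HFD, 4 females on a CD, 4 males on a HFD and 5 males on a CD, with 1 library per rat and no other treatment or allele named. The design had 5 rats per group, so 1 female on a CD and 1 male on a HFD are not analysed here. The HFD females G73FHF3 and G75FHF5 were left out as outliers by the study, and the other 3 are called the kept HFD females here. G73FHF3 was left out after the study's R code had compared the diets in females with and without it. With it no gene differed between the diets, and the R code gives this, beside the effect of the diet, as its reason. A code gives a group number (73 or 75 in females, 74 or 76 in males), the sex (F or M), the diet (HF or C) and the number of the rat. What a group number stands for is not stated. Groups were taken from the titles and codes, since the tags for sex or diet go against them in 13 of the 18 rats. In 2 rats the title and the code differ in the group number. The title of G75FC5, 1 of the 2 libraries chosen as high, gives group 73, and that of G73FHF3 gives group 75.

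Perivascular adipose tissue surrounds blood vessels and releases factors that act on their tone. The depot around the mesenteric resistance arteries is mainly white fat and also holds stromal cells, immune cells, vessel cells, nerves and, at its surface, mesothelium. In bulk RNA of such a tissue, more cells of a type and more RNA per cell cannot be told apart. A gene ID that is high in some rats can therefore come from any of these cells. The Ensembl IDs of the table carry no symbols, and no ID matched the annotation at hand, so the members are numbered 1 to 31 here by their mean FPKM in G75FC4 and G75FC5, and no gene is named. FPKM is the number of fragments of a gene ID scaled by its length and by the fragments counted in genes, so that levels can be compared between gene IDs.

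G75FC4 and G75FC5 stood apart from the other libraries in measures over all gene IDs. At 0.5 FPKM or more they held 12798 and 11865 gene IDs, the lowest counts of all, while G76MC3, a CD male, held 13004 and the other 15 libraries 13242 to 14733. They were deeply sequenced, with 55148275 and 44708768 reads in genes, while the other libraries held 14547762 (G75FHF5) to 49152721 (G76MC4). A measure of how short transcripts fare against long ones, the median log2 deviation of gene IDs of up to 1355 bases minus that of gene IDs of 3059 bases or more, was 0.47 in G75FC4 and 0.75 in G75FC5 and -0.26 to 0.16 in the other 16 libraries, with 0.11 in G76MC3. The median gene ID lay 0.20 below its 18-library median on the log2 scale in G75FC4 and 0.39 below it in G75FC5 (deviations of -0.20 and -0.39). The methods of the study state that the RNA of all its samples passed a minimum of purity and integrity on a spectrophotometer and a Bioanalyzer. Integrity values of single rats were not analysed here, and the part of RNA quality in the levels of the members was not tested.

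In the 2 libraries chosen as high, the mean FPKM of the members ran from 6.80 to 15134, above the 5 FPKM that the rule required. The mean of G75FC4 and G75FC5 was above 500 FPKM in 6 members and under 20 FPKM in 8. In 12 members both libraries were above 100 FPKM. Their median was 69.2 FPKM in G75FC4 and 85.7 FPKM in G75FC5, against 12.4 FPKM in G73FC3 and 19.1 FPKM in G73FC4. The members took 1.84% and 2.58% of all reads in G75FC4 and G75FC5, against 0.276% and 0.506% in G73FC3 and G73FC4. Within each pair the libraries were not level: 23 members were higher in G75FC5 than in G75FC4, and 26 were higher in G73FC4 than in G73FC3. The mean of the high pair was 1.74 to 3.20 above the mean of the low pair on the log2 scale, with a median of 2.37. The transcripts of the members were 568 to 4185 bases long with a median of 1571 bases, and those of the 6496 gene IDs at 5 FPKM or more had a median of 1811 bases.

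The edge of the rule was not a gap. The 3 members just inside had margins of 1.508, 1.507 and 1.502, and the 3 gene IDs just outside had 1.4995, 1.490 and 1.484. The member nearest the edge, member 12, had 103 and 199 FPKM in G75FC4 and G75FC5 against 24.3 and 36.04 FPKM in G73FC3 and G73FC4, and the gene ID next outside had 210 and 327 FPKM against 39.4 and 73.98 FPKM. The gene IDs on both sides of the edge thus had like values.

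Seen over all 18 libraries, the members were not high in libraries of low detection alone. Their median was 8.85, 9.58 and 14.4 FPKM in the kept HFD females G73FHF1, G73FHF2 and G75FHF1 (10.9 ± 3.02, SD, n = 3), near the 12.4 and 19.1 FPKM of G73FC3 and G73FC4. It was 57.0 to 66.9 FPKM in the 4 HFD males (62.4 ± 5.15, SD, n = 4), 93.5 to 119.6 FPKM in 4 CD males and 60.2 FPKM in the other CD male, G76MC3. Of the 9 males, all but G76MC3 held at least 13242 gene IDs at 0.5 FPKM. The share of reads in the members was 0.259% to 0.335% in the kept HFD females, 1.79% to 2.74% in HFD males and 2.27% to 4.18% in CD males. Both values of the high pair, which the rule used, lay within the range of the 9 males in 13 members (22.2% of all gene IDs), below all 9 males in 8 (24.2%) and above all 9 males in 1, member 8 (16.2%).

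**Figure D1:**
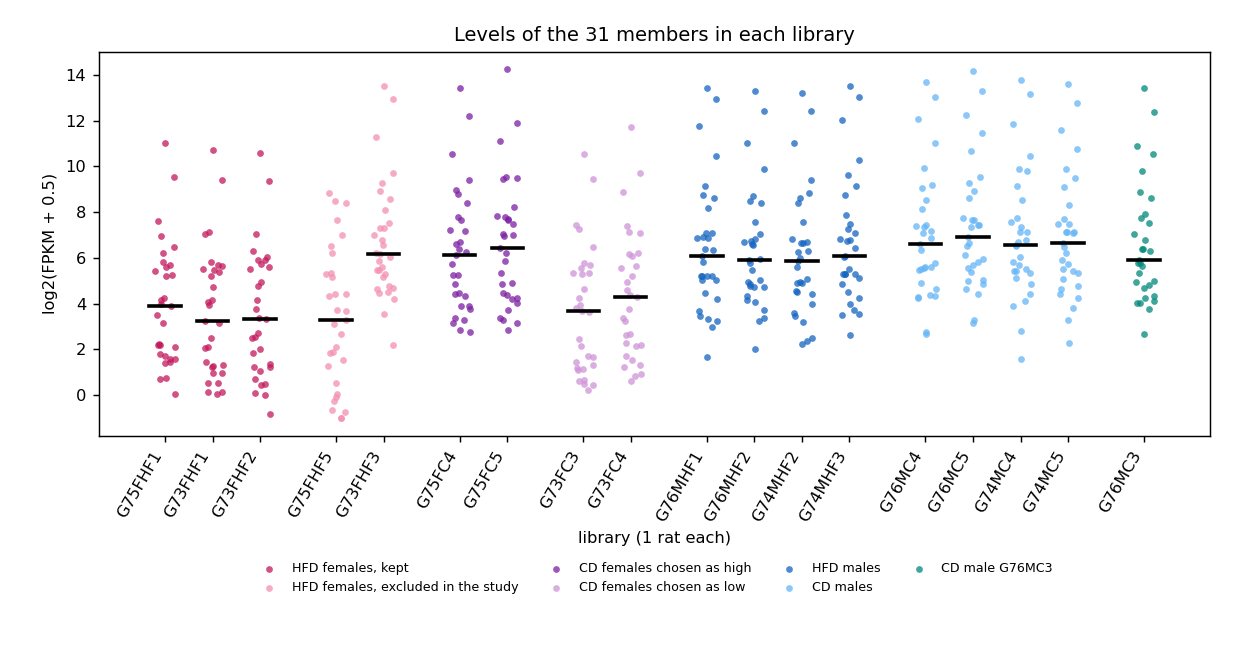
Level of each of the 31 members, as log2(FPKM + 0.5), in the 18 libraries, with 1 point per member and a black bar at the library's median. The kept HFD females, G75FHF5, G73FC3 and G73FC4 have medians of 19.1 FPKM or less, while G75FC4, G75FC5, G73FHF3 and the 9 males have medians of 57.0 FPKM or more.

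**Figure D2:**
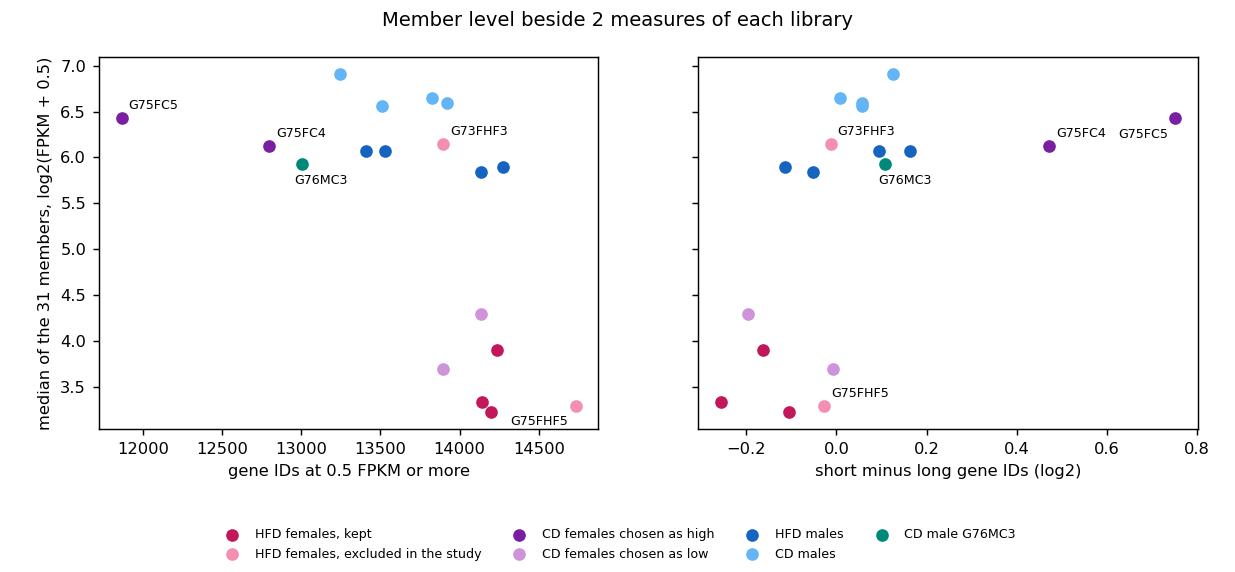
Median log2(FPKM + 0.5) of the members in each library against its count of detected gene IDs, those at 0.5 FPKM or more (left) and against the measure of short minus long gene IDs (right), with 1 point per library. G75FC4 and G75FC5 lie at the low end of detection and the high end of the length measure. The male libraries with 13242 gene IDs or more have a length measure of at most 0.16. Among these, the 4 CD males have member medians above both (93.5 to 119.6 FPKM) and the 4 HFD males below both (57.0 to 66.9 FPKM).

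The rule did not use the libraries of HFD rats, and the sex difference on a HFD could be tested in them. In the kept HFD females, 29 of the 31 members were lower than in HFD males, 1 was higher and 1 did not pass the test. Over the 14302 gene IDs tested, 5.19% were called lower and 6.67% higher in HFD females. The test was limma on log2(FPKM + 0.5) with 3 kept HFD females and 4 HFD males, and a call needed a log2 fold change above 1 or below -1 together with a p under 0.05 after Benjamini-Hochberg adjustment. The median log2 fold change, HFD females minus HFD males, was -2.85 over the members (median SE 0.23) and 0.26 over all gene IDs tested. It was under -3 in 13 members, and 0.496% of all gene IDs were called with so low a value. The 29 lower members ranged from -4.90 in member 20 to -1.05 in member 17, with limma adjusted p from 1.89e-05 to 0.0419. In these 29 members every kept HFD female lay below every HFD male, which held for 13.6% of all gene IDs. With the CD males added, 29 members had all 9 males above all 3 kept HFD females, against 8.43% of 14787 gene IDs.

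Member levels by library show the size of the contrast. Member 20 had 3.00, 0.948 and 1.11 FPKM in the kept HFD females G75FHF1, G73FHF1 and G73FHF2, against 66.9, 58.9, 48.7 and 66.2 FPKM in the HFD males G76MHF1, G76MHF2, G74MHF2 and G74MHF3. The groups were far apart, and the highest female value was under the lowest male value. Member 28 had 1.12, 0.606 and 0.572 FPKM in these females against 32.5, 26.9, 22.2 and 38.6 FPKM in these males, a log2 fold change of -4.59 (SE 0.23). Member 3, among the most abundant, had 197, 132 and 78.8 FPKM in these females against 3430, 2088, 2099 and 4201 FPKM in these males. Member 17 came closest to an overlap among the 29, with 10.8, 8.85 and 5.09 FPKM in the kept HFD females and 12.5, 19.6, 11.4 and 28.8 FPKM in the HFD males. The member that did not pass, member 31, had 2.19, 1.90 and 3.55 FPKM in the kept HFD females and 2.67, 3.52, 4.26 and 5.63 FPKM in the HFD males, with a log2 fold change of -0.57 (SE 0.27) and a limma adjusted p of 0.120, and here the groups overlapped.

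The count of calls depended on which HFD females were in the fit. When G73FHF3 was added, 0 members were called with limma, and the median log2 fold change was -2.04. At an unadjusted p under 0.05, 24 members were lower and 1 was higher. Of 14431 gene IDs, 5323 had such a p, 1557 of them lower (10.8% of all gene IDs). When G75FHF5 was added as well, 0 were called, 20 were lower at such a p (6.12% of all gene IDs), and the median was -2.14. With G75FHF5 added alone, a fit chosen after seeing the data, 16 members were called lower and 0 higher, 27 were lower at such a p (8.27% of all gene IDs), and the median was -2.95. Over all gene IDs, 12 were called higher and 16 lower with G73FHF3, 3 higher and 5 lower with both, and 39 higher and 340 lower with G75FHF5 alone. A scaling by the median of ratios to a reference library moved the median of all gene IDs to -0.01, with 293 called higher and 1085 lower in HFD females in place of 954 and 742, and under it 29 members were lower and 0 higher.

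**Figure D3:**
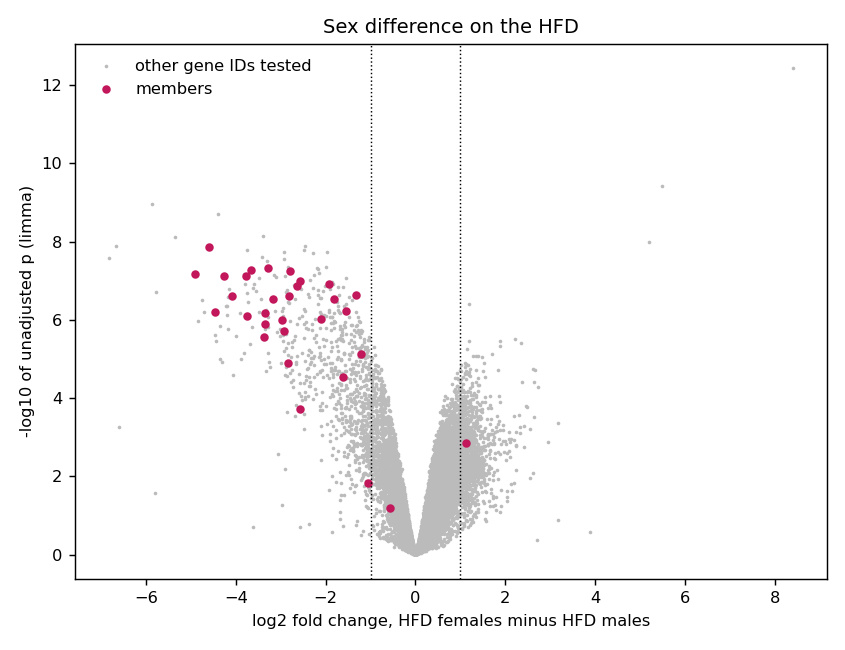
Log2 fold change, HFD females minus HFD males, against -log10 of the unadjusted limma p for all 14302 gene IDs tested (grey) and the 31 members (red), with dotted lines at -1 and 1. The 29 members called lower lie left of -1, member 8 lies at 1.13 and member 31 at -0.57.

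For 3 members the ID and all 18 values are given. ENSRNOG00000033564, member 1, was the most abundant, with 11020 and 19248 FPKM in G75FC4 and G75FC5 against 1505 and 3359 FPKM in G73FC3 and G73FC4. It alone took 0.698% and 1.22% of the reads of G75FC4 and G75FC5. It had 2093, 1685 and 1542 FPKM in the kept HFD females G75FHF1, G73FHF1 and G73FHF2, against 10909, 10008, 9367 and 11557 FPKM in the HFD males, so the female values were well below the male ones. CD males had 13029, 18461, 13887 and 12259 FPKM in G76MC4, G76MC5, G74MC4 and G74MC5, and G76MC3 had 10868 FPKM. G73FHF3 was with the males at 11718 FPKM and G75FHF5 stood alone at 0.434 FPKM, which was 4 reads. The log2 fold change between the sexes on a HFD was -2.57 (SE 0.16, limma adjusted p = 3.52e-05), a call lost in each of the 3 fits that added an excluded female (adjusted p from 5.39e-06 to 0.429 over 20 alternatives).

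ENSRNOG00000047023, member 25, had the largest margin of the rule, 2.57 on the log2 scale, and a low level. It had 14.2 and 15.6 FPKM in G75FC4 and G75FC5 against 1.99 and 1.96 FPKM in G73FC3 and G73FC4. The kept HFD females had 3.85, 1.43 and 2.08 FPKM, against 32.7, 25.99, 20.9 and 34.4 FPKM in the HFD males. CD males had 54.9, 61.7, 40.02 and 40.5 FPKM, and G76MC3 had 31.5 FPKM. The high pair of CD females thus lay between the low females and the males and below all 9 males. The excluded females G73FHF3 and G75FHF5 had 25.05 and 21.1 FPKM, within the range of the HFD males. Its log2 fold change between the sexes on a HFD was -3.35 (SE 0.28, limma adjusted p = 0.000124), lost in the same 3 fits (adjusted p from 3.35e-05 to 0.311 over 20 alternatives).

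ENSRNOG00000017414, member 8, was the exception and was chosen for display after its values were seen. It had 223 and 221 FPKM in G75FC4 and G75FC5, against 46.2 and 72.1 FPKM in G73FC3 and G73FC4. The highest value in the other 16 libraries was 72.9 FPKM. The kept HFD females had 72.9, 55.8 and 59.6 FPKM, against 21.3, 43.9, 30.8 and 22.1 FPKM in the HFD males, and CD males had 47.2, 40.8, 51.5 and 72.9 FPKM with 49.2 FPKM in G76MC3. It was higher in HFD females than in HFD males, with a log2 fold change of 1.13 (SE 0.24, limma adjusted p = 0.0112), and every kept HFD female lay above every HFD male, as in 32.6% of all gene IDs. This call was lost in 6 of 20 alternatives, among them the median-of-ratios scaling and the fit without G76MHF1, with limma adjusted p from 0.000564 to 0.785. The fit of all 4 groups was also among the 6. It holds the 4 libraries of the rule, so nothing is read from that loss. G73FHF3 had 47.7 FPKM and G75FHF5 had 8.01 FPKM, the lowest of all 18.

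**Figure D4:**
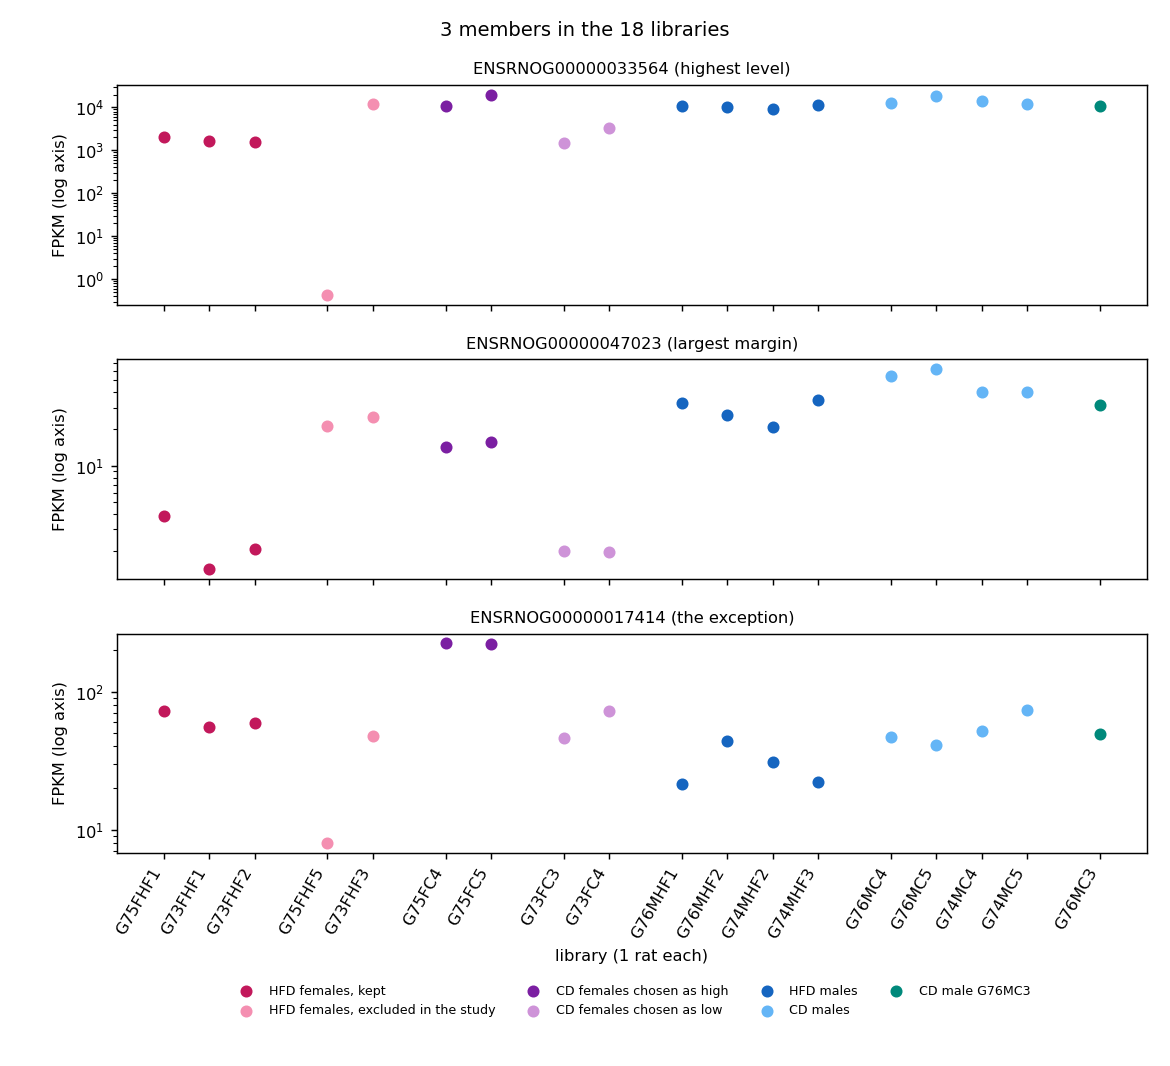
FPKM, on log axes, of members 1, 25 and 8 in the 18 libraries, with 1 point per rat and libraries grouped by sex and diet. Members 1 and 25 are low in the kept HFD females, G73FC3 and G73FC4, whereas member 8 is high in G75FC4 and G75FC5 alone, at 223 and 221 FPKM.

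Among males, the members were lower on the HFD in a smaller measure. With limma over 4 HFD males and 5 CD males, 4 of 31 members were called lower and 0 higher, while of 14265 gene IDs 0.273% were called lower and 5.99% higher. At an adjusted p under 0.05 without the size threshold, 17 members passed and all were lower in HFD males, against 6.15% of all gene IDs. The log2 fold change, HFD males minus CD males, was negative in 29 of the 31 members, against 49.0% of all gene IDs, with a median of -0.61 (median SE 0.22) over the members and 0.01 over all gene IDs. Every HFD male lay below every CD male in 9 members, against 6.35% of all gene IDs. All 22 members with an unadjusted p under 0.05 were lower, against 14.6% of all gene IDs lower at such a p.

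The 4 called members were members 6, 13, 26 and 30. Member 30 had 8.97, 9.97, 5.17 and 11.3 FPKM in HFD males against 19.4, 32.5, 20.6, 18.2 and 19.4 FPKM in CD males, without overlap, and a log2 fold change of -1.29 (SE 0.23, limma adjusted p = 0.0190). Member 6 had 564, 411, 397 and 796 FPKM in HFD males against 983, 1625, 949, 955 and 900 FPKM in CD males, with a log2 fold change of -1.02 (SE 0.24). Both groups were again apart. Member 26 had 7.40, 8.94, 4.73 and 12.9 FPKM in HFD males against 20.5, 20.8, 17.1, 13.5 and 13.1 FPKM in CD males, where the highest HFD value nearly met the lowest CD values. Members 22 and 27 had positive values of 0.23 (SE 0.22) and 0.81 (SE 0.46) and did not pass. These calls depended on single libraries, as did those over all gene IDs. No member was called without G76MHF1, G76MHF2 or G74MHF3. Over all gene IDs, 0 were called higher and 0 lower without G76MHF1 or without G76MHF2, and 3 higher and 0 lower without G74MHF3. In these 3 fits 19, 21 and 22 members were lower at an unadjusted p under 0.05 (9.68%, 11.7% and 10.4% of all gene IDs). Without G74MHF2, G76MC4 or G76MC5, 1 member was called lower, and of all gene IDs 71, 19 and 10 were called lower and 1055, 298 and 101 higher. Without G76MC3, 24 members passed at an adjusted p under 0.05, with 4 called lower and 1, member 27, called higher. Of 14161 gene IDs in that fit, 557 were called higher and 43 lower. The share of all gene IDs at such an adjusted p was not computed there, so nothing is read from the 24. In each of these fits 29 members had a negative value.

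Within the males many members had their highest or lowest value in the same rat. Their highest male value was in G76MC5 in 24 members, and their lowest was in G74MHF2 in 16 and in G76MC3 in 7. The median Pearson correlation between pairs of members over the 9 males was 0.72, a description over rats that share diet and depth differences. It was taken over both diets, so the diet difference of the members is part of it. The like counts and correlation over all gene IDs were not computed, so nothing particular to the members is read from these values. G76MC5 also had the largest share of reads in the members, 4.18%.

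Groups 76 and 74 could be compared in males, whose libraries the rule did not use. The members were chosen between females coded 75 and 73, and no male carries these numbers. The comparison therefore cannot say whether the numbers of the females go with the members. In group 76 against group 74, with diet in the limma fit over 9 males, 0 of 14265 gene IDs were called higher (0%) and 0 lower (0%), 274 had an unadjusted p under 0.05, and with limma-voom on recovered reads 0 were called and 244 had such a p. No member was called, and 2 had an unadjusted p under 0.05. The log2 fold changes of the members, group 76 minus group 74, ran from -0.52 in member 7 to 0.87 in member 27, and the smallest adjusted p was 0.985. A p that misses the threshold does not show that the group numbers had the same levels.

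The kept HFD females were not alike in the members either. G75FHF1 lay above both G73FHF1 and G73FHF2 in 21 members, against 27.5% of all gene IDs. In G75FHF1 the members took 0.335% of the reads, against 0.275% in G73FHF1 and 0.259% in G73FHF2. Member 26 had 2.24 FPKM in G75FHF1 against 0.540 and 0.504 FPKM in these, and member 21 had 2.53 FPKM against 0.964 and 0.921 FPKM. All of these lay well under the 19.4 and 29.2 FPKM of member 21 in G75FC4 and G75FC5, the CD females whose codes carry the same number.

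G76MC3, the CD male of low detection, was set apart from the other CD males. It lay below the other 4 CD males in 21 of 31 members, against 30.4% of all gene IDs, and above them in 2, against 33.2%. The difference from the mean of the other 4 had a median of -0.51 on the log2 scale over the members and 0.00 over all gene IDs. Member 22 had 16.0 FPKM in G76MC3 against 28.96 to 34.2 FPKM in the other CD males, the lowest of all males. Member 27 went the other way, with 18.4 FPKM against 2.53 to 9.36 FPKM, the highest of all males. G76MC3 had the lowest median level of the members among CD males. It held 13004 gene IDs at 0.5 FPKM or more, beside 13242 in G76MC5, 12798 in G75FC4 and 11865 in G75FC5. Its measure of short minus long gene IDs was 0.11, against 0.47 and 0.75 in G75FC4 and G75FC5. The part of detection in these levels was not tested.

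The excluded female G73FHF3 had high levels of the members. It lay above all 3 kept HFD females in 30 members, against 21.8% of all gene IDs, with member 8 as the exception below them. Set against the average of the kept HFD females, the members were higher by a median of 3.14 on the log2 scale, and by 4.86 in member 20, which had 57.9 FPKM in G73FHF3. Member 2 had 7796 FPKM in G73FHF3 against 649 to 750.0 FPKM in the kept HFD females, and HFD males had 5492 to 8319 FPKM. Against the 4 HFD males, G73FHF3 lay above them in 15 members (19.8% of all gene IDs), within their range in 12 (64.8%) and below them in 4 (15.4%). Its number of gene IDs at 0.5 FPKM, 13893, was within the range of the other libraries.

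G75FHF5, the other excluded female and the shallowest library, lay below all 4 HFD males in 25 members, against 40.3% of all gene IDs. It lay above the kept HFD females in 13 members and below them in 17, shares near the 36.2% and 50.1% of all gene IDs. Members 21 and 26 had 0 reads and member 4 had 3 reads or 0.104 FPKM, against 48.5 to 87.4 FPKM in the kept HFD females. In all, 6 members were under 0.5 FPKM in G75FHF5. Members 14 and 28, however, had 126 and 92.5 FPKM, against 8.36 to 14.4 FPKM and 0.572 to 1.12 FPKM in the kept HFD females, and member 28 was above all 9 males, whose highest value was 47.0 FPKM. A count of 0 allows up to 3 reads, which at this depth is 0.246 FPKM for member 21 and 0.0897 FPKM for member 26, for counting error only, and both floors lie under the lowest value of these members in the kept HFD females.

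**Figure D5:**
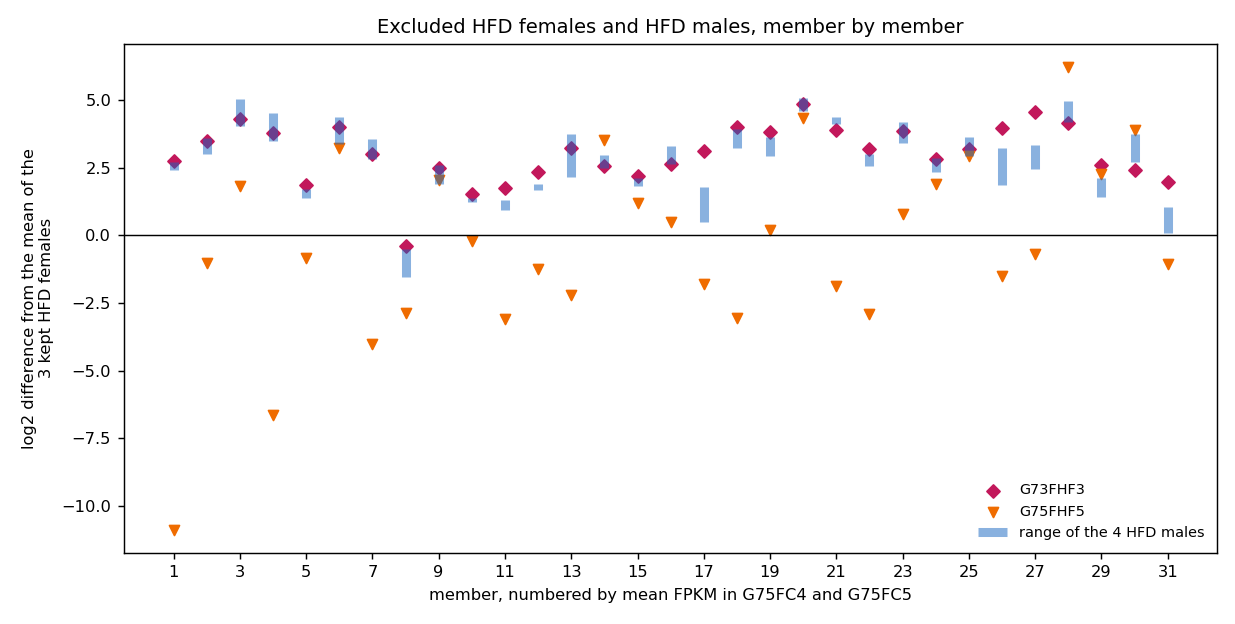
Log2 level of each member less the average of the 3 kept HFD females, numbered by mean FPKM in G75FC4 and G75FC5, in G73FHF3 (diamonds), G75FHF5 (triangles) and, as bars, the range of the 4 HFD males. G73FHF3 has a median of 3.14, and G75FHF5 runs from -10.88 in member 1 to 6.23 in member 28.

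The CD sex and female diet comparisons hold the 4 libraries of the rule, so their values stand side by side with no test. G75FC4 lay below all 5 CD males in 21 members (background 32.8% of all gene IDs) and G75FC5 in 15 (background 48.4%). G73FC3 and G73FC4 lay below all 5 CD males in 30 members each, with 21% and 15.4% of all gene IDs. The mean of the high pair minus the mean of the CD males had a median of -0.78 on the log2 scale and was negative in 23 members, and the mean of the low pair minus that of the CD males had a median of -3.10. Relative to the mean of the kept HFD females, the medians were 2.65 in G75FC4 and 2.97 in G75FC5, 0.02 in G73FC3 and 0.68 in G73FC4. The difference between the pairs is set by the rule, and nothing is read from it.

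Gene IDs limited to 1 sex were read in it, a step added after the levels had been seen. An ID was taken as limited to males when each of the 9 males had at least 0.5 FPKM and each kept HFD female less than 0.1 FPKM, and as limited to females in the reverse case, which gave 8 male-limited IDs and 1 female-limited ID, none of them a member. Of the 8, 4 were under 0.5 FPKM in all 9 female libraries, with a highest value of 0.113 FPKM there and 0.643 to 79 FPKM in males. G75FC4 and G75FC5 had 2 of the 8 at 0.5 FPKM or more, as did G73FC4 and G75FHF5, and G73FC3 had 1. G73FHF3 had 4. The female-limited ID had 1.54 and 0.767 FPKM in G75FC4 and G75FC5, against 14.8 and 35.2 FPKM in G73FC3 and G73FC4. It had 14.03 FPKM in G73FHF3, 21.3 FPKM in G75FHF5, 19.2 to 27.4 FPKM in the kept HFD females and at most 0.0665 FPKM in males. The high pair was thus low, but above all males, in the female-limited ID. The 4 male-limited IDs under 0.5 FPKM in all 9 female libraries were picked with the high pair among these libraries. Its low values in them are set by that choice, and nothing is read from them. The part of tissue content in the members, for which markers need symbols, was not tested.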

How the data were processed

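Sequenced RNA of MRPVAT was analysed from 18 Dahl S rats, of which 16 were among those that the study kept. The design had 5 rats per group. Paired-end reads had been mapped with STAR 2.5, counted with HTSeq 0.6.1 and tested on counts with DESeq2 1.24.0 by the authors. The deposited table holds FPKM values made by the authors. The genome build, the annotation and the formula of FPKM were not given in the sources used here. Reads in genes and gene lengths were recovered from the steps of the FPKM, which came out as whole reads within 1e-05 reads for all 22851 gene IDs above 0, and sums of 99.99% to 100.0% of each library's total. The recovery was tested on simulated data: with 10 libraries 0 totals came back, and with 18 libraries 18 totals and 99.9% of 16021 gene IDs.

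FPKM are not counts, so tests used limma 3.58.1 (R 4.3.3) with trend on log2(FPKM + 0.5), which understates the change of low gene IDs. Gene IDs at 0.5 FPKM in at least 3 of the rats compared were tested, with Benjamini-Hochberg adjustment over all of them, and called at an adjusted p under 0.05 with a log2 fold change above 1 or below -1. On data simulated for the sex difference, 99% of 100 changes of 1.5 on the log2 scale and 100% of 100 changes of 3 were called, with 9 false calls among 14071 unchanged gene IDs. For the male diet difference these were 99%, 100% and 2 among 13948. The simulation gave all gene IDs the same relative spread between rats and held no outlying library. Changes were put only on gene IDs with a mean of at least 5 FPKM. These rates therefore need not hold for the real libraries. Summaries and plots used Python 3.11.15, numpy 2.4.6, pandas 2.3.3 and matplotlib 3.10.9.

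The members and lists were chosen with earlier results of these data known. Of 32883 gene IDs, 0 matched the annotation at hand, so the planned lists of cell type markers and processes, chromosomes, promoters and sequences were not used, and members are numbered. The rule for named genes was to print at most 2 IDs per direction where IDs have no symbol, from the members with the highest level or largest margin. Alternatives were other pseudocounts, filters, scalings and weights, limma-voom on recovered reads, a fit of all 4 groups, excluded females added, a block on group number and each rat left out. A correction for gene length within each library, G75FHF5 added alone and the IDs limited to 1 sex were added after seeing the data.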

Additional observations from a re-analysis of the deposited data

Results flagged for a closer look

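In 5 measures of the members over 4 groups of 4 or 5 rats, 20 sets of values, the values were searched for a rat far from the others of its group, and 4 were found, all among the 5 HFD females, where chance alone picks out about 1 in 20 sets. G73FHF3 was far above the other HFD females in the median log2(FPKM + 0.5) of the members, at 6.15, and in the share of reads in the members, at 2.38%. G75FHF5 was far below the other HFD females in log2(FPKM + 0.5) of ENSRNOG00000033564, at -0.10, and of ENSRNOG00000017414, at 3.09. Both rats are the ones that the study left out, and no explanation was tested.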

How the results depend on the processing

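Of 254 alternative values, 216 kept their side of the threshold or stayed close to the reported value. Close meant within a set ratio for counts and within the SD between rats for medians. For the share of members in which G76MC3 lay below the other 4 CD males, it meant within a binomial interval over the 31 members. That interval takes members of 1 library as independent. All 8 of its alternatives, 53.2% to 73.1% against 67.7%, counted as close, and nothing is read from that. A reversal was looked for only in the median sex difference on the HFD and in the 3 printed IDs, and 0 were found. The 216 include the comparison of group numbers, where 0 members were called in every fit. Its median over the members, near 0, changed sign between fits, from -0.10 without G74MHF2 to 0.13 without G76MC3. On the HFD, the members called lower in females were 28 to 29 with 1 rat left out, 0 with G73FHF3 or with both excluded females, and 16 with G75FHF5 alone. The members called higher were 0 under median-of-ratios scaling, in the fit of all 4 groups, with G73FHF3, with G75FHF5 and with both, and 0 to 1 with 1 rat left out, 0 being the fit without G76MHF1. The median log2 fold change was -3.12 under median-of-ratios scaling, -2.04 with G73FHF3, -2.14 with both excluded females and -3.06 to -2.75 with 1 rat left out. In males, the members called lower on the HFD were 2 with quality weights, 0 in the fit of all 4 groups and 0 to 4 with 1 rat left out. Those called higher were 1 with quality weights and 0 to 1 with 1 rat left out. Of all 14265 gene IDs, 890 were called higher and 149 lower with quality weights, and 0 higher and 0 lower in the fit of all 4 groups. That fit holds the 4 CD females of the rule, which chose the members for a gap between them. The median SE of the members was 0.47 in it against 0.22 for the male diet, and 0.54 against 0.23 for the sex difference. Nothing is read from the member calls lost in it. With the group number as a replicate block, 3 members were called lower, and of all gene IDs 662 were called higher and 34 lower, against 854 and 39 without the block. The group number is shared by rats of both diets but what it marks is not stated. No paired analysis was possible for the sex difference because females and males share no group number. Quantile normalization gave 487 gene IDs higher and 100 lower on the HFD in males. The rule itself gave 201 members at a margin of 1, 10 at a margin of 2, 174 under median-of-ratios scaling and 94 under quantile normalization, of which 23 were among the 31. With each library's trend over gene length removed, it gave 26, of which 19 were among the 31. The cause was not tested for any of these. The groups are small, 3 to 5 rats, and the sex difference on the HFD rests on which females are kept.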
